A study of Mus musculus with 4 samples.

Results

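Kupffer cells are the resident macrophages of the liver. They sit inside the sinusoids, clear particles, bacteria and aged red cells from portal blood, and recycle iron and lipid. They are known to arise largely before birth, to renew themselves in place, and to be marked in the mouse by the lectin Clec4f, the phosphatidylserine receptor Timd4 and the complement receptor Vsig4. When they are lost, monocytes entering the liver can take on the same identity, and macrophages of injured or fatty livers are known for a separate set of lipid-associated genes such as Trem2, Cd9, Gpnmb and Spp1.

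Here Kupffer cells were barcodes of a single-cell RNA data set that were selected on their own counts. A barcode needed at least 500 UMIs (counted RNA molecules), at least 200 genes, under 20% mitochondrial UMIs, at least 3 UMIs of the complement genes C1qa, C1qb and C1qc together, and at least 2 UMIs of Clec4f, Timd4 and Vsig4 together. Barcodes with 3 or more UMIs of the endothelial genes Clec4g, Dnase1l3, Gpr182, Stab2 and Ehd3, or any UMI of Cd3d, Cd3e, Cd3g or Cd79a, were left out. These 15 genes chose the members and are therefore given only as a description. The selection held 773 of 36150 filtered barcodes, or 2.14% (1.99 to 2.29, 95% Clopper-Pearson interval).

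The livers came from a mouse model of hepatocellular carcinoma that the labels call gene-induced, without naming the gene, the strain, the sex, the age or the number of animals. HCC-NL was normal liver at week 0, and HCC-ES and HCC-MS were tumor tissue at weeks 4 and 8. For HCC-LS, also tumor tissue, the sample label gives week 10 and the series text gives week 12. There was 1 sample of each, and the joint count matrix holds 4 libraries, told apart by the barcode suffixes 1 to 4, which no source used here pairs with a sample. The matrix was therefore taken as 1 pooled sample, no week was compared, no test between groups was made, and the libraries are given by number. All intervals are at 95% and account for no error beyond counting. A difference between libraries cannot be told apart from one between animals, preparations or stages.

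Libraries 1 to 4 held 15593960, 49975828, 24012736 and 40617071 UMIs. The Kupffer cells in them numbered 434, 126, 148 and 65, with medians of 1405.5, 3112, 1318.5 and 3111 UMIs per cell and median mitochondrial shares of 0.924%, 2.48%, 3.35% and 2.55%. A doublet score above 0.25 was given to 28 of the 773 (3.62%), of which 19, 0, 6 and 3 lay in libraries 1 to 4. Of the Kupffer barcodes, 23 had a sequence that also occurred in another library, where 710 sequences were shared in all, and 0 shared it with another Kupffer barcode. Libraries 2 and 4 had more RNA per barcode, and 902 and 809 of their barcodes failed the filter, against 71 and 140 in libraries 1 and 3.

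Kupffer cells made up 4.74% (4.32 to 5.20) of the filtered barcodes of library 1, 1.55% (1.29 to 1.84) of library 2, 1.45% (1.23 to 1.71) of library 3 and 0.747% (0.577 to 0.952) of library 4. The share in library 1 was above the intervals of the other 3, and that in library 4 was below them. Among barcodes with the C1q genes that passed the same endothelial and lymphocyte limits, Kupffer cells were 434 of 516 in library 1 (84.1%, 80.7 to 87.2) and 148 of 255 in library 3 (58.0%, 51.7 to 64.2). They were 126 of 996 in library 2 (12.7%, 10.6 to 14.9) and 65 of 313 in library 4 (20.8%, 16.4 to 25.7). The remaining C1q barcodes were 1165 with no UMI of Clec4f, Timd4 or Vsig4, called other C1q macrophages here (57, 808, 84 and 216 in libraries 1 to 4), and 142 with exactly 1. Digestion, the mesh and the lysis of red cells can set such shares, and their part was not tested.

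**Figure D1:**
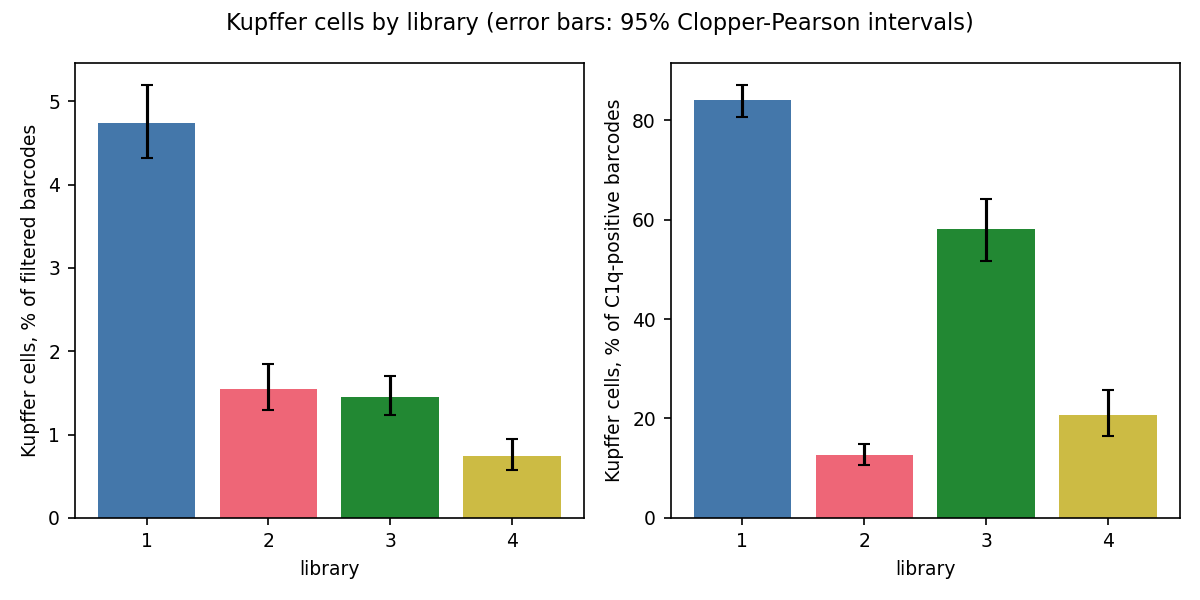
Kupffer cells as a percent of filtered barcodes (left) and of C1q-positive barcodes (right) in each library, with 95% Clopper-Pearson intervals as error bars. Library 1 stands highest in both panels, at 4.74% and 84.1%, and the order of libraries 2, 3 and 4 differs between the panels.

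The genes that chose the cells were uneven over the libraries. Clec4f, a galactose-binding lectin of Kupffer cells, stood at 4157, 1557, 2422 and 1380 CPM (counts scaled to the population's total) in libraries 1 to 4. Timd4 stood at 583, 219, 193 and 157 CPM, and Vsig4 at 1029, 519, 691 and 465 CPM. All of them were highest in library 1. Clec4f was seen in 98.4%, 78.6%, 94.6% and 78.5% of Kupffer cells and, once each cell was thinned to 1000 UMIs, in 92.9%, 62.3%, 82.5% and 56.1%. In sinusoidal endothelial cells, which should lack it, the thinned share was at most 0.814% in any library, where median depths were 964 to 1981 UMIs. A single gate gene was seen in 206 cells, a pair in 332 and all 3 in 235, and the median depth ran from 1111 to 1382 and 2475 UMIs over these classes.

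The edge of the selection was gradual. The 110 members with exactly 2 UMIs of the gate genes had Cd5l at 1204 CPM and Folr2 at 134 CPM, and the 142 barcodes left out with 1 UMI had 960 and 38.6 CPM. The 663 members with 3 or more UMIs had 3222 CPM of Cd5l and 541 CPM of Folr2, against 341 and 31.9 CPM in barcodes with none. Mmp12 stood at 391 CPM in members with 3 or more UMIs, 568 CPM at 2, 1020 CPM at 1 and 676 CPM at none. All these values are pooled over libraries, and the classes differ in their mix. Library 1, where Mmp12 was lowest, held 400 of the 663, 34 of the 110, 25 of the 142 and 57 of the 1165 barcodes. The part of this mix was not tested. At the limit of the C1q genes, the 34 members with exactly 3 UMIs had Cd5l at 730 CPM and the 31 barcodes left out with 2 had 1548 CPM.

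Kupffer cells were first set against the other C1q macrophages, to describe what the resident cells carried beyond the genes that chose them. A gene was called higher or lower when it had at least 100 UMIs over both populations, a ratio of at least 2-fold combined within libraries (Mantel-Haenszel), an interval without 1 and the same direction in all 4 libraries. Of 6799 genes outside the gate, 156 (2.29%) were higher and 115 (1.69%) lower in Kupffer cells, and 375 (5.52%) passed on size and interval without the condition on libraries. Of 20 genes of Kupffer cell identity, 16 were higher and 0 lower, with a median log2 ratio of 2.94 against 0.00 over all genes. These calls describe a population selected on related genes, and the list was chosen with earlier results of these data known. Without library 1, 97 genes were higher, and without library 2, 67 were lower. Over 249 tested members of all function lists, 26 were higher and 23 lower.

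Cd5l (ENSMUSG00000015854), a secreted protein that protects macrophages from death and binds lipids, stood at 2490, 4186, 2183 and 2514 CPM in the Kupffer cells of libraries 1 to 4. The other C1q macrophages had 154, 358, 152 and 340 CPM. The 4 Kupffer values lay above all 4 of the others, and the combined log2 ratio was 3.46 (3.37 to 3.56). Among scavenger receptors, Marco (ENSMUSG00000026390), which binds bacteria and particles, stood at 260, 39.7, 193 and 44.4 CPM against 16.2, 0.841, 4.89 and 0 CPM, a log2 ratio of 4.87 (3.59 to 6.14). Marco was seen in 87 of 434 Kupffer cells of library 1, and in libraries 2 and 4 a single barcode held 13 of 22 and 8 of 13 of its UMIs. Cd163, the receptor for haemoglobin bound to haptoglobin, stood at 400, 45.2, 259 and 17.1 CPM, against 40.5, 3.65, 0 and 0 CPM. Its log2 ratio was 4.04 (3.13 to 4.94). Both genes were higher in libraries 1 and 3 than in libraries 2 and 4.

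Windows before the start of Cd5l and Marco are shown because these genes of the identity list had the most UMIs and the largest ratio of the list. They are the 250 bases before the RefSeq start, read 5′ to 3′ on the gene's strand (GRCm38.p6, another build than that of the counts). Capitals mark GAGGAAG or its reverse complement, a form of the site bound by ETS factors such as PU.1. The Cd5l window is chr3:87357631-87357880 on the + strand and the Marco window is chr1:120505025-120505274 on the - strand.
Cd5l: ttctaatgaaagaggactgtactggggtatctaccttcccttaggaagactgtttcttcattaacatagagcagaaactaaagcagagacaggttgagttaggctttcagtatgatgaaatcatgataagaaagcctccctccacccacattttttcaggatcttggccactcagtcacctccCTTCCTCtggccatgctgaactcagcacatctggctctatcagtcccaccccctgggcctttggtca
Marco: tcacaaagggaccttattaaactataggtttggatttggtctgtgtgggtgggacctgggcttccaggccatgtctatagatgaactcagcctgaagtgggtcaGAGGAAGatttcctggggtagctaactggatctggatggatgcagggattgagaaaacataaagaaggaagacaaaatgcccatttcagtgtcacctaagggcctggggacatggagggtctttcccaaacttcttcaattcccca
Of the 20 identity genes, 15 had a window in the table, and 4 of them (Cd5l, Marco, Fcna and Cd207) held GAGGAAG on either strand, against 12.0% of 27025 genes. AGGTCA, a half-site of nuclear receptors, was in 2 (C6 and Fabp7), against 15.8%. A match describes letters and is not a bound site.

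Other identity genes gave the same direction in each library. Fcna, a ficolin that recognises sugars on microbes, stood at 1990, 893, 787 and 1161 CPM against 97.2, 216, 44.0 and 212 CPM (log2 ratio 2.58, 2.43 to 2.74). Folr2, a folate receptor of resident macrophages, stood at 679, 358, 442 and 225 CPM against 32.4, 35.9, 24.4 and 14.9 CPM, so that no values overlapped. C6, a component of the membrane attack complex, had a log2 ratio of 3.70 (3.20 to 4.20), and Cdh5, a cadherin best known from endothelium, also 3.70 (2.94 to 4.45). Cd207, a lectin first known from Langerhans cells, had 3.92 (2.93 to 4.91), and Fabp7, a carrier of fatty acids, 3.71 (3.35 to 4.08). Ccl24, a chemokine that attracts eosinophils, had 3.41 (3.01 to 3.81), and the potassium channel Kcna2 3.29 (2.66 to 3.92). Slc40a1, the exporter of iron, stood at 1464, 826, 1075 and 868 CPM in Kupffer cells and at 64.8, 392, 142 and 544 CPM in the other macrophages (1.41, 1.28 to 1.53). Clec1b, Il18bp, Hpgd and Slc16a9 made up the rest of the 16, with log2 ratios of 1.63, 1.89, 1.56 and 2.27.

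The other 4 identity genes were not called. Adgre1, the F4/80 antigen, had a log2 ratio of 0.86, Cd38 of 0.88 and the integrin Itga9 of 0.96. Vcam1, an adhesion molecule, was at 808 CPM in Kupffer cells and 805 CPM in the other macrophages of library 2, and its combined log2 ratio was 0.24. Each identity gene called higher stayed so when the UMIs of its top barcode in each library and population were removed (16 of 16). When the other macrophages were limited to those with at least 2 UMIs of Mmp12 and Gpnmb, 9 of the 20 were called higher. That setting could be read in libraries 2 and 4 only, so the comparison cells and the libraries changed together.

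**Figure D2:**
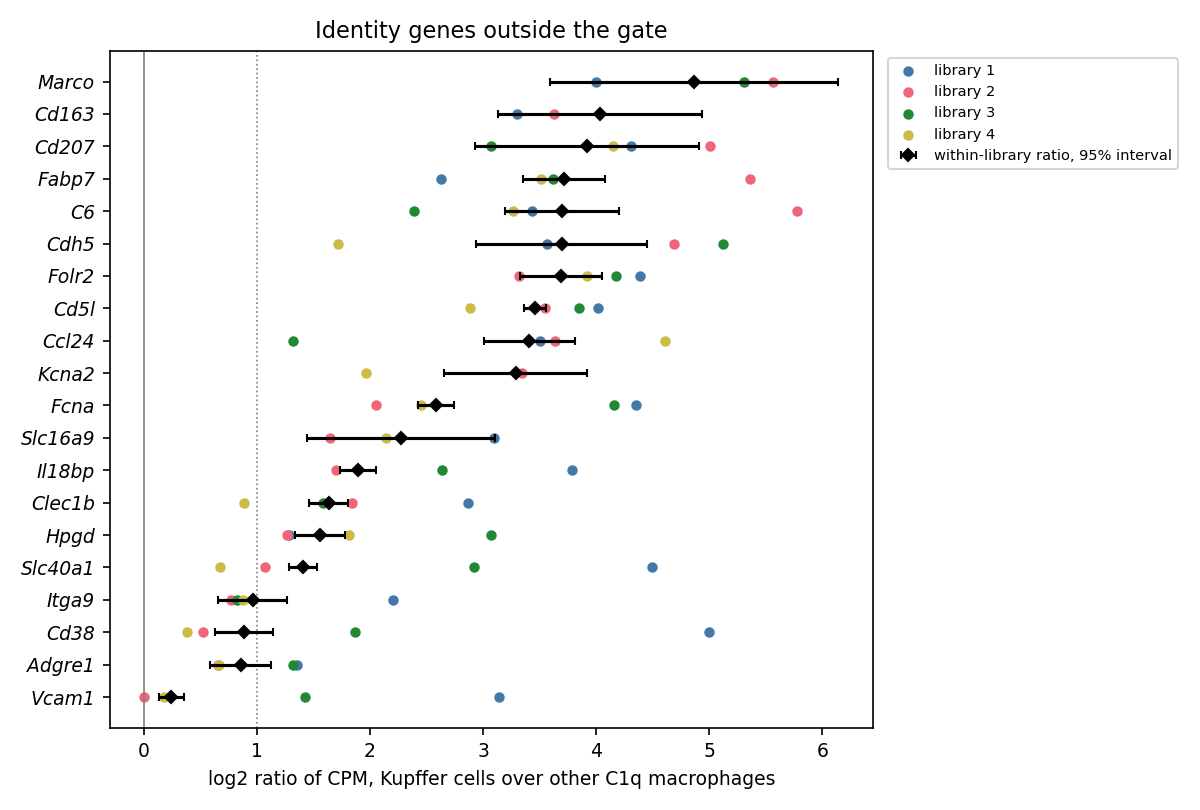
Log2 ratio of CPM in Kupffer cells over other C1q macrophages for the 20 identity genes outside the gate. Black diamonds are the ratio combined within libraries with its 95% interval, and coloured points are single libraries with UMIs on both sides. The dotted line marks 2-fold, and Marco has the largest ratio at 4.87.

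Outside the lists, the genes with the largest positive ratios were Pcolce2, an enhancer of procollagen processing, at a log2 ratio of 4.13 (3.23 to 5.03), Chp2, a calcium-binding protein, at 3.17 (2.40 to 3.93), and the kinase Dmpk at 3.11 (2.69 to 3.53). Gbp2b followed at 2.81 and Gpx3, a secreted glutathione peroxidase, at 2.69. Of 17 transcription factors tested, 1 was higher and 0 lower. It was Id3, which is known to be needed for Kupffer cell development, at 2674, 1214, 1249 and 745 CPM against 1588, 197, 1095 and 578 CPM (log2 ratio 1.18, 1.08 to 1.28). The liver X receptor Nr1h3, another factor of Kupffer cell identity, had a log2 ratio of 0.75 and Spic of 0.10. Csf1r, the receptor for the growth factor of macrophages, was higher at 1.25 (1.10 to 1.39). Among 15 receptors for growth factors and niche signals, it was the 1 called higher, and 1, Eng, was called lower.

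Genes of uptake and metabolism were called in part. Of 14 scavenger and lectin receptors, 5 were higher, which were Marco and Cd163, Cd36, which takes up oxidised lipids, at 1.33 (1.10 to 1.56), the lysosomal Scarb2 at 1.12 and the endocytic receptor Lrp1 at 1.04. The lipopolysaccharide receptor Cd14 was lower at -1.26 (-1.50 to -1.03). Of 16 genes of cholesterol and lipid handling, 3 were higher and 0 lower, Apoc1, an apolipoprotein, at 1.44 (1.38 to 1.49), Pltp, which transfers phospholipids, at 1.50, and Cd36. Cfp, which stabilises the complement convertase, was at 1.03, the integrin Itgal at 1.74 and the iron regulator Hfe at 1.08. Of 9 complement genes, 2 were higher, Cfp and C6, and 1, C5ar1, was lower. Among 10 Fc receptors, integrins and adaptors, 1 was higher, Itgal, and 2 were lower, Fcgr2b and Itgax. Of 14 genes of iron and heme handling, 3 were higher and 0 lower. Of 15 lysosomal proteins and 10 genes for the uptake of dying cells, 0 were called in either direction, and the receptor Axl had a log2 ratio of 0.86 and Mertk of 0.56.

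Part of the genes of monocytes and of inflammation were lower. Of 9 monocyte genes, 5 were lower and 0 higher, with a median log2 ratio of -1.63. Ccr2, the receptor that brings monocytes into tissue, had 3, 1, 1 and 1 UMIs in the Kupffer cells of libraries 1 to 4 and 13, 65, 19 and 15 in the other macrophages, a log2 ratio of -3.90 (-5.18 to -2.61). S100a6, Fn1, F13a1 and Ms4a4c were lower at -2.82, -1.20, -1.43 and -1.63. Of 15 chemokines, 3 were lower and 1, Ccl24, was higher. Ccl4 was at 1418, 999, 1999 and 1489 CPM in Kupffer cells against 6974, 2482, 8434 and 2223 CPM (-1.53, -1.60 to -1.46), and Ccl3 and Ccl2 were at -1.28 and -1.17. Of 15 cytokine genes, 4 were lower, among them Il1b at -1.20 and Osm at -2.62, and 1 was higher, the inhibitor Il18bp of the identity list.

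Fcgr2b (ENSMUSG00000026656), the inhibitory receptor for IgG, had the largest negative ratio among the genes called lower. It stood at 15.1, 7.23, 6.55 and 6.83 CPM in Kupffer cells and at 203, 211, 269 and 90.5 CPM in the other macrophages, a log2 ratio of -4.58 (-5.44 to -3.71). Spp1, osteopontin, stood at 3.78, 19.9, 6.55 and 27.3 CPM against 24.3, 105, 323 and 438 CPM (-3.48, -4.07 to -2.90). Gm34084, a gene outside the lists, ranked next after Fcgr2b. Clec4e, which senses dying cells and fungi, was at -4.03, Anxa1 at -3.50, Ifnb1 at -3.24 and Thbs1 at -2.88. Of 10 lipid-associated genes, 2 were lower, Spp1 and Fabp5, and 0 higher. Among 12 genes of dissociation stress and immediate-early response, 2 were lower, Atf3 and Zfp36, and 0 higher. Without the top barcode of each library, 135 of the 156 higher and 75 of the 115 lower genes were still called. Gbp2b, Clec4e, Thbs1, Arg1, F13a1 and Atf3 were among those that were not.

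MHC class II genes were compared with the libraries in view. H2-Eb1 stood at 1341, 1057, 852 and 796 CPM in Kupffer cells and at 9858, 1263, 4885 and 1856 CPM in the other macrophages (-1.52), and H2-Aa was lower at -1.04. The 7 genes of the list summed to 9083, 8429, 5847 and 5451 CPM in the Kupffer cells of libraries 1 to 4. In the other macrophages they summed to 49963, 8499, 24531 and 11380 CPM, with the most in libraries 1 and 3. The other C1q macrophages numbered 57 and 84 in those libraries. Of 12 interferon-induced genes, 8 of MHC class I, 6 checkpoint genes and 9 of glycolysis, 0 were called. Markers of hepatocytes had a median log2 ratio of -0.39 with 0 of 12 called, and those of dendritic and stellate cells had too few UMIs to be tested. Markers of neutrophils had a median log2 ratio of -1.04 with 0 of 3 called. They summed to 46.7, 282, 279 and 51.2 CPM in the Kupffer cells of libraries 1 to 4. The other macrophages had 24.3, 83.6, 3261 and 209 CPM of them. Of 12 endothelial markers outside the gate, 2 were tested and 1, Pecam1, was higher at 1.26, but not without its top barcodes. The endothelial limit alone left out 65, 5, 2 and 5 barcodes in libraries 1 to 4. The part of endothelial and neutrophil RNA in the calls was not tested.

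The levels of Kupffer cells were then read across the libraries. A gene was called for library 1, which held the most Kupffer cells, when it differed by at least 2-fold from each of the 3 others with intervals without 1 and had 100 Kupffer UMIs in all. Of 2771 genes, 37 (1.34%) were higher and 64 (2.31%) lower in library 1. Against libraries 2 and 4 only, without library 3, 206 were higher and 176 lower. Of the identity genes, 14 of 20 had their highest level in library 1, 4 in library 2 (Cd5l, Clec1b, Il18bp and Kcna2) and 1 each in libraries 3 (Cd207) and 4 (Vcam1). The highest library was not counted over all genes, so these counts have no background. Against library 2 alone 8 of 19 tested identity genes were higher in library 1, where 12.5% of all genes were. Against library 4 alone it was 10 of 19, where 13.1% were, and against library 3 alone 3 of 19, where 4.01% were.

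Hpgd, which breaks down prostaglandins, was the 1 identity gene higher in library 1 than in each other library. It stood at 1419, 154, 492 and 280 CPM, with log2 ratios of 3.21, 1.53 and 2.34 to libraries 2, 3 and 4. Id3 stood at 2674, 1214, 1249 and 745 CPM, Mrc1, the mannose receptor, at 559, 217, 256 and 181 CPM and Lyz2, lysozyme, at 3877, 1248, 1557 and 868 CPM, all called higher. Egr1 and Jun, immediate-early genes that tissue digestion is known to induce, were higher too, with Jun at 1883, 808, 846 and 529 CPM. In sinusoidal endothelial cells Jun was lowest in library 1, at 425, 1337, 1847 and 2166 CPM. The part of digestion in these levels was not tested. Cxcl13, an attractant of B cells, had 416, 0, 48 and 0 Kupffer UMIs. The level of 525 CPM in library 1 was at least 96.8-fold above what 3 counts would give in library 2 and at least 51.2-fold above that in library 4. Endothelial and T cells had 0 UMIs of it in the same 2 libraries.

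Lipid-associated macrophage genes had the opposite order. Of 8 tested members, 5 were lower in library 1 than in each other library and 0 higher. Against library 2 alone all 8 were lower, where 10.4% of all genes were, against library 4 alone 7 of 8, where 11% were, and against library 3 alone 5 of 8, where 3.54% were. The 10 genes of the list summed to 1046, 5507, 2681 and 6592 CPM in the Kupffer cells of libraries 1 to 4.

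Mmp12 (ENSMUSG00000049723), an elastase of macrophages, had 2, 264, 193 and 351 UMIs in Kupffer cells, or 2.52, 477, 632 and 1199 CPM. Library 1 was lower by log2 ratios of -7.56 (-10.62 to -5.70), -7.97 (-11.03 to -6.10) and -8.89 (-11.94 to -7.03). The UMIs were spread over 56, 28 and 44 barcodes in libraries 2 to 4, and no barcode held more than 14.5% of a library's. After thinning to 1000 UMIs, Mmp12 was seen in 1 of 297 Kupffer cells of library 1 (0.337%, 0.00852 to 1.86), in 27.2% (19.3 to 36.3) of library 2, 18.6% (11.4 to 27.7) of library 3 and 45.6% (32.4 to 59.3) of library 4. Sinusoidal endothelial cells gave 0%, 0.521%, 0% and 0.792% and T cells 0% in all libraries. Between the Kupffer cells and the other C1q macrophages the gene was not called, at a combined log2 ratio of 0.05 (-0.07 to 0.17). The other C1q macrophages had 227, 715, 249 and 679 CPM.

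**Figure D3:**
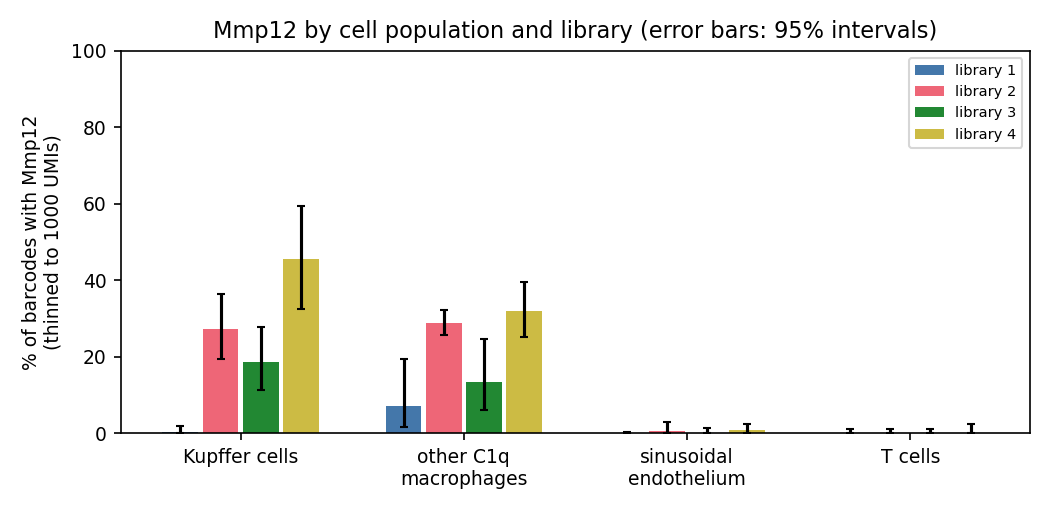
Percent of barcodes with at least 1 UMI of Mmp12 after thinning to 1000 UMIs, by population and library, with 95% Clopper-Pearson intervals as error bars. Kupffer cells run from 0.337% in library 1 to 45.6% in library 4, and endothelial and T cells stay under 1%.

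The window before the Mmp12 start is shown because this gene had the widest range over the libraries among the list's members. RefSeq gives 2 starts, and the one with most annotated transcripts was taken, chr9:7347124-7347373 on the + strand (GRCm38.p6). Capitals mark TGANTCA, a site bound by AP-1 factors such as Jun, and AGGTCA, a nuclear receptor half-site, each on either strand.
Mmp12: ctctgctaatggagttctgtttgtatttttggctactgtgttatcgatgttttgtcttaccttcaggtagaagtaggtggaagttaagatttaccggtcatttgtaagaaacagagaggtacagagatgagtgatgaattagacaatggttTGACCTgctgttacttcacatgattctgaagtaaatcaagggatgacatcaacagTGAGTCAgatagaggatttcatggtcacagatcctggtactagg
TGANTCA was in a window of 7.82% of all genes and in 2 (Mmp12 and Trem2) of the 7 lipid-associated genes with one. GAGGAAG was in 4 of the 7 (Mmp12 in the window of its other start, Cd63, Spp1 and Trem2), against 12.0% of all genes.

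Cd63, a tetraspanin of lysosomes, stood at 36.6, 567, 203 and 731 CPM in the Kupffer cells of libraries 1 to 4. Cd9, a tetraspanin of the surface, stood at 20.2, 202, 102 and 191 CPM, and Fabp5, a fatty acid carrier, at 25.2, 401, 91.8 and 488 CPM. Trem2, a lipid-sensing receptor, stood at 95.9, 356, 223 and 427 CPM. Each was lowest in library 1, and each stayed called without its top barcodes. The summed list stood at 1612, 7988, 3349 and 7192 CPM in the other C1q macrophages and at 912, 1721, 1256 and 1620 CPM in monocytes, lowest in library 1 there too. In T cells it stood at 1384, 429, 223 and 291 CPM, highest in library 1. Cd63 and Fabp5 were also lower in library 1 in at least 1 of endothelial cells, T cells and monocytes. Lgals3, Lpl and Fabp4 of the list were lower in library 1 than in some libraries, with Lgals3 at 436, 2295, 754 and 2439 CPM.

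**Figure D4:**
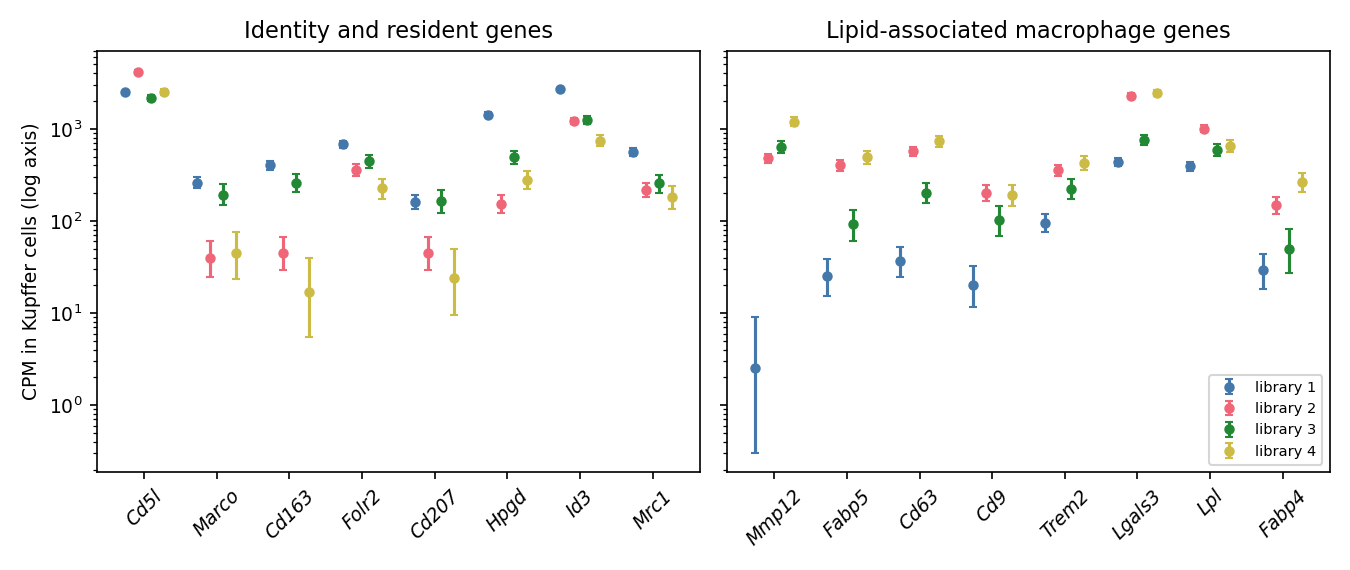
CPM in Kupffer cells by library for identity and resident genes (left) and lipid-associated genes (right), on a log axis with exact Poisson 95% intervals. Marco, Cd163 and Hpgd are highest in library 1, and Mmp12 runs from 2.52 CPM in library 1 to 1199 CPM in library 4.

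Other genes lower in library 1 were Mmp13, a collagenase, at 10.1, 86.7, 193 and 184 CPM, Ccl9, a chemokine, at 8.83, 126, 52.4 and 92.2 CPM, and Ifit2, an interferon-induced gene, at 35.3, 114, 154 and 239 CPM. Rsad2, Cxcl1, Il1rn, Cd36, Ldha and Bhlhe40 were lower as well. Of these, Ccl9, Rsad2, Il1rn, Cd36, Ldha and Bhlhe40 were not called without their top barcodes. The library 1 calls were also looked up in other populations. In other C1q macrophages, 27 of the 64 lower genes were also lower and 9 of the 37 higher genes also higher. Of the 64 lower genes, 33 were also lower in endothelial cells, T cells or monocytes by the same measure with at least 20 UMIs, and of the 37 higher genes 6 were. The share of all genes called in any of these populations was not counted, so these counts have no background. Among those shared with endothelial cells, T cells or monocytes were Ifit2, Rsad2, Cxcl1 and Bhlhe40 and the hepatocyte genes Apob, Fga, Fgb, Fgg and Cyp2e1. Fga stood at 25.2, 273, 141 and 137 CPM in Kupffer cells and at 20.2, 381, 191 and 181 CPM in T cells, and the part of free RNA was not tested. H19, an imprinted RNA, had 0 UMIs in library 1 in Kupffer, endothelial and T cells alike.

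Several of the largest ratios in favour of library 1 rested on single barcodes. In library 1, 1 barcode held 902 of 910 UMIs of Hbb-bs, 1 held 265 of 271 of Hba-a1, and 1 held 192 of 195 of Retnla. Without each gene's top barcode per library, 29 of the 37 higher and 41 of the 64 lower genes were still called. Markers of neutrophils summed to 46.7, 282, 279 and 51.2 CPM, those of stellate cells to 22.7, 10.8, 229 and 0 CPM and those of hepatocytes to 3577, 5339, 4041 and 5889 CPM. Their part in the differences between libraries was not tested.

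The Kupffer cells of a library were not all alike in Mmp12. Cells with at least 2 UMIs of Mmp12 and Gpnmb together numbered 1 of 434 in library 1, 39 of 126 in library 2 (31.0%, 23.0 to 39.8), 22 of 148 in library 3 (14.9%, 9.56 to 21.6) and 39 of 65 in library 4 (60.0%, 47.1 to 72.0). Within libraries 2 and 3, 61 such cells were set against 182 with none of these UMIs. Library 4 had 19 cells with none, under the minimum of 20. The cells with these UMIs were also deeper, with median UMIs of 4322 against 2483.5 in library 2 and 3352.5 against 1140.5 in library 3, so a choice on 2 UMIs favours deep barcodes and the values are given as CPM.

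Several identity genes were lower in the Mmp12 and Gpnmb cells of these 2 libraries. Folr2 stood at 186 against 498 CPM in library 2 and at 352 against 544 CPM in library 3, a combined log2 ratio of -1.05 (-1.43 to -0.68). Fcna was at -0.79 (-1.03 to -0.55) and Cd5l at -0.54 (-0.66 to -0.42). Of the genes that chose the cells, given as a description only, Clec4f was at -1.04 (-1.21 to -0.86), Timd4 at -0.58 (-1.06 to -0.10) and Vsig4 at -0.25 (-0.54 to 0.04). A shallow cell must still hold 2 UMIs of these genes to be counted, and the part of this in their values was not tested. Cd163 was at -2.06, but its levels were 50.4 and 43.8 CPM in library 2 and 37.0 and 430 CPM in library 3, so that this ratio came from library 3. Marco had a combined interval of -0.64 to 0.63, from opposite directions of 0 against 83.6 CPM in library 2 and 287 against 149 CPM in library 3. Fabp5 was higher at 2.29 (1.83 to 2.75), Fabp4 at 1.81, Cd63 at 1.54, Cd9 at 1.29, Lgals3 at 1.27 and Trem2 at 0.78. Cd74, the invariant chain of MHC class II, was higher at 0.95 (0.84 to 1.06).

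Clec4f, Vsig4, Cd5l, Fcna and Folr2 had the other order in library 4. Clec4f stood at 1587 CPM in the 39 cells with Mmp12 and Gpnmb UMIs and 1123 CPM in the 19 without, and Cd5l at 2940 against 1574 CPM. Fcna stood at 1156 against 671 CPM, Folr2 at 314 against 82.1 CPM and Vsig4 at 623 against 219 CPM. Clec1b at 421 against 315 CPM and Adgre1 at 117 against 68.5 CPM were also higher in the 39 cells. Slc40a1 at 809 against 835 CPM and Timd4 at 133 against 219 CPM kept the direction of libraries 2 and 3, while Cd163 had only 3 and 1 UMIs. Lgals3 at 3211 against 739 CPM and Fabp5 at 612 against 205 CPM also kept it. The 19 cells are under the minimum of 20. They carried the hepatocyte gene Alb at 2150 CPM against 623 CPM in the 39, and C1qa at 1807 against 5251 CPM, and the part of this in the order was not tested.

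**Figure D5:**
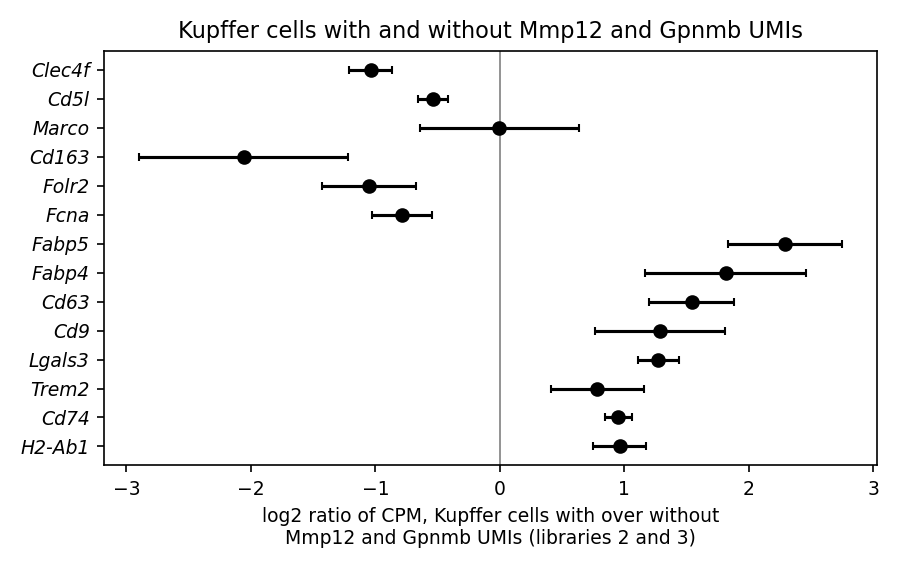
Log2 ratio of CPM in Kupffer cells with at least 2 UMIs of Mmp12 and Gpnmb over those with none, combined within libraries 2 and 3 (61 and 182 cells), with 95% intervals. Folr2 lies at -1.05 and Fabp5 at 2.29.

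Kupffer cells were also split by Timd4. Over all libraries 351 Kupffer cells had at least 1 UMI of it and 422 had none. Those with it were deeper, with median UMIs of 1859 against 1040.5, 5383 against 2244, 1984 against 1149 and 5352 against 2176 in libraries 1 to 4. Lyz2 was higher in those with it, at a log2 ratio of 0.78 (0.68 to 0.87), as were Marco at 0.73, Fcna at 0.57 and Folr2 at 0.52. Marco had the other order in library 2, at 14.5 against 81.1 CPM. In library 3 Folr2 stood at 414 against 459 CPM and Fcna at 783 against 788 CPM. In the remaining libraries each of these genes was higher in the cells with Timd4. Clec4f, given as a description only because it chose the cells, was at -0.07 (-0.15 to 0.01). A cell without Timd4 must hold 2 UMIs of Clec4f and Vsig4 to be counted, and the part of this was not tested. Of the lipid-associated genes, Lgals3 was higher at 0.34 (0.23 to 0.46), Cd63 at 0.32 (0.08 to 0.56) and Fabp5 at 0.32 (0.04 to 0.61). The intervals of Gpnmb, Trem2, Cd9, Lpl and Spp1 spanned both directions. Mmp12 was lower at -0.32 (-0.53 to -0.11). Mmp12 stood at 216 against 871 CPM in library 3, at 468 against 491 CPM in library 2 and at 1259 against 1145 CPM in library 4. C1qa, a gene that chose the cells, was at 0.30.

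Few Kupffer cells carried Mki67, the Ki-67 antigen of dividing cells. The thinned share was 1.35% (0.368 to 3.41), 2.63% (0.546 to 7.50), 4.12% (1.13 to 10.2) and 7.02% (1.95 to 17.0) in libraries 1 to 4, with overlapping intervals. T cells gave 1.63%, 7.26%, 2.43% and 6.62% and endothelial cells 0%, 2.60%, 1.68% and 1.32%. An order of the libraries in the share of Kupffer cells with Mki67 was not detectable at this depth. The summed level of 14 proliferation genes was lower in library 1, at 90.8 (71.1 to 114), 392 (342 to 448), 436 (365 to 517) and 434 (362 to 516) CPM. The other C1q macrophages had 97.2, 524, 381 and 396 CPM and endothelial cells 99.6, 761, 262 and 432 CPM, also lowest in library 1. T cells had 412, 1129, 324 and 909 CPM.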

How the data were processed

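Single-cell RNA was measured in 4 mouse liver samples with a 10x Genomics 3′ kit after digestion, a mesh and red cell lysis, per the labels' protocols. The authors deposited raw UMI counts of genes in barcodes, made with Cell Ranger 6.0.1, per the file headers. The genome build is mm9 per the submitters' processing notes, and no annotation is named in the labels or file headers. Gene symbols are those of the deposited files, in which 339 of 340 list genes were found. The members and lists were chosen with earlier results of these data known.

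Counts were summed per population and library and scaled to CPM, with exact Poisson intervals. Shares have Clopper-Pearson intervals, ratios within libraries Mantel-Haenszel intervals and ratios between libraries exact conditional binomial intervals. UMIs of a population are not independent replicates, so all cover counting error only. Sinusoidal endothelial cells (3376), T cells (1356) and monocytes (737) were chosen by marker counts of the same kind. Thinning drew 1000 UMIs per barcode and left out 208 of the 773 Kupffer cells. Doublets were scored with Scrublet (scanpy 1.11.5, expected rate 8%) and kept. The text names called list members, up to 8 per list and 30 per comparison, in part as counts. It also names genes from the 15 largest ratios each way and some uncalled list members for contrast. On simulated counts the code was tested with known changes. Python 3.11.15, numpy 2.4.6, scipy 1.17.1 and pandas 2.3.3 were used. The alternatives concern depth, doublets, hepatocyte RNA, gate limits, the weighting of libraries, leaving out libraries and, added after the data were seen, each gene's top barcode and a further macrophage marker.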

Additional observations from a re-analysis of the deposited data

How the results depend on the processing

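No paired analysis was possible because each group has 1 sample and the libraries carry no sample label. Of the genes named in the text, none changed direction in the comparison that called it, under the alternatives run for it. Between libraries, single genes outside the lists were run only without their top barcodes. The haemoglobin genes Hba-a1, Hba-a2 and Hbb-bs, called for library 1 only, changed direction against other C1q macrophages. Without their top barcodes, their log2 ratios there were -4.03, -1.61 and -3.92, from 0.47, 1.36 and 0.04. The shares in libraries 2, 3 and 4 were 0.927%, 1.13% and 0.480% with barcodes thinned to 1000 UMIs, and 1.21%, 1.15% and 0.552% with at least 3 UMIs of the gate genes. With at least 1 such UMI they were 2.31% in library 2 and 1.12% in library 4. The 156 genes higher than in other C1q macrophages became 62 against macrophages with Mmp12 and Gpnmb (read in libraries 2 and 4 only, with 3785 genes tested, so that comparison cells and libraries changed together), 84 thinned, 267 from 20 UMIs and 97 without library 1. The 115 lower genes became 206 with pooled counts, 215 at 3 gate UMIs, 50 thinned, 228 from 20 UMIs and 67 without library 2. The identity genes called higher were 9 of 20 in that same setting of 2 libraries. Across libraries, the 37 higher genes became 68 from 20 UMIs and 206 without library 3, and the 64 lower genes 133 and 176. Without library 1, library 3 had the most Kupffer cells, and 66 genes were higher and 140 lower in it. Of the values for single genes, 678 against other macrophages moved by less than their interval and 241 moved by more without a change of direction. Between libraries these were 275 and 13. The 65 Kupffer cells of library 4 and the 57 other C1q macrophages of library 1 limit the precision, and genes under 100 UMIs were not read. The causes of these changes were not tested.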
